A study of Mus musculus with 56 samples.

Results

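The genes described here are 8 macrophage identity genes, C1qa, C1qb, C1qc, Csf1r, Cd68, Adgre1, Lyz2 and Apoe, chosen by symbol, and all 8 were found in each of the 10 deposited tables, which list 53819 or 55453 genes. Bulk RNA-seq was done on cells sorted from tumors that the mouse colon carcinoma line MC38 formed in the rectum of female C57BL/6J mice of 6 to 8 weeks of age. The line carried luciferase, and the study's methods also describe selected clones. Whether the sequenced tumors came from a clone is not stated. The sorted tumor cells are described as GFP+. Short course radiotherapy (SCRT) was given as 5 daily fractions of 5 Gy from day 9 to day 13, and tumors were harvested on day 14. The labels give 5 untreated and 10 SCRT samples each for CD8+ T cells (sorted as CD45+ CD8+), cancer-associated fibroblasts (CAFs, sorted for PDGFRa, Podoplanin and Ly6C among cells without CD45 and CD31) and the GFP+ tumor cells. By the labels, a further 11 samples of CD8+ T cells came from mice that received SCRT with either a control IgG (5 samples) or an antibody that blocks the type I interferon receptor, anti-IFNAR (6 samples). The study's figure legend gives these numbers the other way round, as 6 for IgG and 5 for anti-IFNAR.

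Macrophages are phagocytes that clear dying cells and take part in antigen presentation and tissue repair, and in irradiated tumors they lie among large amounts of cell debris. Their identity depends on signaling through the CSF1 receptor, encoded by Csf1r, and tissue macrophages are a main source of C1q, the recognition molecule of the classical complement pathway. None of the sorting gates of the samples used here selected for macrophages, so transcripts of these genes were followed in sorts for other identities. The study also sorted and sequenced tumor-associated macrophages, which are not among these samples.

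The measurement is the authors' mean normalized count, the read count of a gene after scaling for library size, averaged over the libraries of 1 statistical fit. The 10 tables hold 3 different sets of means. The 3 tables of untreated, responding and nonresponding CD8+ T cells share 1 set, the 6 tables of CAFs and tumor cells share another, and the table of IgG and anti-IFNAR has its own. These are named here the CD8+ T cell fit, the CAF and tumor cell fit and the anti-IFNAR fit. The samples that the labels assign to them number 15, 30 and 11. The tables do not state which libraries entered a mean. Equal means in tables of different groups, and in tables of CAFs and of tumor cells, were read here as 1 mean over all of those groups, and whether other libraries also entered a fit was not tested. No level can therefore be given for a treatment, a response group, or CAFs apart from tumor cells, and a level of a fit is that of its libraries together, not of 1 sorted cell type. No value per sample was used, so the values have no error, no test could be run on them, and the spread that would show which neighbouring levels differ is unknown.

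Markers of the sorted cells were looked at first. In the CD8+ T cell fit the authors' mean was 46970 normalized counts for Cd8a and 43081 for Cd8b1, the 2 chains of the CD8 coreceptor. In the anti-IFNAR fit the same genes had authors' means of 8470 and 5590, and in the CAF and tumor cell fit 5.74 and 1.06. The CAF and tumor cell fit was rich in fibroblast transcripts, with authors' means of 46777 for Col1a1, a fibrillar collagen chain, and 12488 for Pdgfra, a growth factor receptor used in the CAF gate. No marker of the tumor cells was examined.

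The 8 macrophage identity genes had high means in both fits named for CD8+ T cells, whose libraries are known only through the labels. Their authors' means in the CD8+ T cell fit ranged from 1126 normalized counts for Adgre1 to 56239 for Apoe, with a median of 5059. In sum the 8 genes held 0.403% of all normalized counts, beside 0.434% for the 4 T cell markers Cd8a, Cd8b1, Cd3e and Cd3d. Per kb of exon, which removes the effect of transcript length, the macrophage sum was 1.29 times the T cell marker sum. This sum sets 8 genes against 4 and rests mostly on Lyz2 and Apoe, and the medians run the other way, at 3269 normalized counts per kb for the macrophage genes and 11931 for the T cell markers. In the anti-IFNAR fit the members ranged from 590 (Adgre1) to 18269 (Apoe), with a median of 2695. There the 8 genes held 0.397% of all normalized counts and the T cell markers 0.194%, and per kb of exon the macrophage sum was 3.00 times that of the T cell markers, while the medians were close, at 1798 and 1764 normalized counts per kb. In bulk samples, fewer cells of a type and less RNA per cell cannot be told apart, and which cells held these transcripts was not tested.

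In the CAF and tumor cell fit the same genes were present at lower levels. Their authors' means ranged from 67.3 (Adgre1) to 2777 (Apoe), with a median of 364, and they held 0.0211% of all normalized counts. The CAF markers Pdgfra, Pdpn, Ly6c1, Col1a1 and Dcn together held 0.374%, and per kb of exon the macrophage sum was 0.180 times the CAF marker sum. The 4 T cell markers were between 1.06 and 5.74 normalized counts, and the macrophage sum per kb was 1039 times theirs. Ptprc, which encodes the CD45 antigen that the study's methods exclude in both gates, had an authors' mean of 50.4 in this fit, against 54999 in the CD8+ T cell fit and 12512 in the anti-IFNAR fit.

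**Figure D1:**
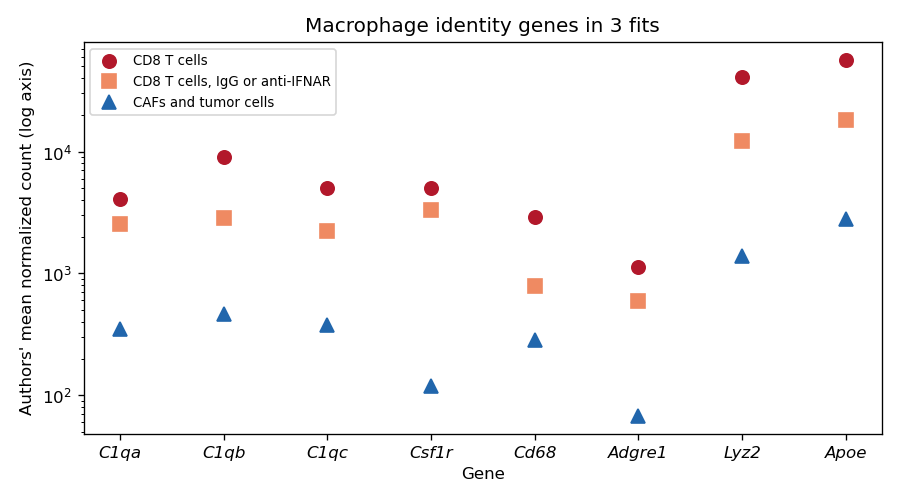
Authors' mean normalized count (log axis) of each of the 8 genes in the 3 fits; each point is 1 mean over all libraries of a fit, with no error available. For each gene the CD8+ T cell fit is highest and the CAF and tumor cell fit lowest, from 56239 (Apoe, CD8+ T cells) down to 67.3 (Adgre1, CAFs and tumor cells). The fits were normalized separately, so this order also carries a difference in scale.

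The 3 fits were normalized separately, so levels set across them also carry a difference in scale. They also differed in the genes listed, 55453 in the CD8+ T cell fit and 53819 in the others. Protein-coding genes with a length held 97.8% of counts in the CD8+ T cell fit, 72.6% in the anti-IFNAR fit and 97.2% in the CAF and tumor cell fit. The part of these differences in the ratios below was not tested. Over the 12468 genes with a mean of at least 10 in both, the median ratio of the CD8+ T cell fit to the CAF and tumor cell fit was 1.04. The median ratio of the 8 macrophage genes was 18.2, and all 8 were higher in the CD8+ T cell fit. Over 12860 genes the median ratio of the CD8+ T cell fit to the anti-IFNAR fit was 3.84, and that of the macrophage genes was 2.67. The higher values of all 8 genes in the CD8+ T cell fit than in the anti-IFNAR fit were thus smaller, at the median, than the scale difference of genes in general. From the anti-IFNAR fit to the CAF and tumor cell fit the median ratio was 0.262 over 11570 genes and 6.89 over the macrophage genes.

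The complement genes encode the 3 chains that assemble into C1q, and by RefSeq gene order they lie directly beside each other, as C1qb, C1qc and C1qa. C1qa had an authors' mean of 4078 normalized counts in the CD8+ T cell fit, 2541 in the anti-IFNAR fit and 353 in the CAF and tumor cell fit. C1qb had authors' means of 9105, 2849 and 463 in the same order. C1qc had authors' means of 5052, 2224 and 376. Read per kb of exon, C1qb was the highest of the 3 chains in each fit and stood at 2.13 times C1qa in the CD8+ T cell fit. This ratio was 1.07 in the anti-IFNAR fit and 1.25 in the CAF and tumor cell fit. C1qc per kb of exon was 0.667, 0.471 and 0.574 times C1qa in the 3 fits. With the longest transcript as the length, C1qc moved above C1qa in the CD8+ T cell fit, at 4199 against 3922 normalized counts per kb.

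Of the 2 surface receptors, Csf1r encodes the receptor for CSF1 and interleukin 34, on which most macrophages depend for survival. Csf1r had an authors' mean of 5066 normalized counts in the CD8+ T cell fit, 3343 in the anti-IFNAR fit and 118 in the CAF and tumor cell fit. Its ratio between the CD8+ T cell fit and the CAF and tumor cell fit was 42.8, the largest of the 8 genes, and Cd68 had the smallest at 10.2. Adgre1 encodes F4/80, an adhesion receptor widely used to sort mouse macrophages. It had authors' means of 1126, 590 and 67.3 in the same order. Per kb of exon, Csf1r and Adgre1 were the 2 lowest of the 8 genes in each fit, with 877 and 348 normalized counts per kb in the CD8+ T cell fit and nearly equal values of 20.5 and 20.8 in the CAF and tumor cell fit. With the longest transcript as the length, Csf1r passed Cd68 in the anti-IFNAR fit, at 711 against 636 normalized counts per kb. C1qa was 4.47 times Csf1r per kb in the CD8+ T cell fit and 4.22 times in the anti-IFNAR fit, but 16.5 times in the CAF and tumor cell fit.

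Cd68 and Lyz2 serve the lysosome and host defence. Cd68 encodes a heavily glycosylated protein of the late endosome and lysosome of phagocytes, and its transcript is not unique to them. The authors' means of Cd68 were 2923 in the CD8+ T cell fit, 782 in the anti-IFNAR fit and 286 in the CAF and tumor cell fit. Lyz2 encodes lysozyme, which cuts bacterial cell walls and is also made by neutrophils and monocytes, and its reads may be shared with the adjacent and closely related Lyz1. The authors' means of Lyz2 were 41041, 12107 and 1402. By level per kb of exon it ranked 13 of 21783 protein-coding genes in the CD8+ T cell fit, 17 of 21323 in the anti-IFNAR fit and 1549 of 21323 in the CAF and tumor cell fit. Genes of neutrophils were looked at beside it. In the CD8+ T cell fit Ly6g had an authors' mean of 3.73, S100a8 of 690 and S100a9 of 865, and in the anti-IFNAR fit these were 2.20, 19.4 and 31.0. In the CAF and tumor cell fit Ly6g stood at 96.7, S100a8 at 34.1 and S100a9 at 3.10. The part of neutrophil transcripts in the Lyz2 level was not tested.

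Apoe encodes apolipoprotein E, a carrier of cholesterol and other lipids that macrophages secrete and that fibroblasts and other stromal cells can also make. Its authors' means were 56239, 18269 and 2777 normalized counts. Per kb of exon it ranked 23 of the protein-coding genes in the CD8+ T cell fit, where Cd8a ranked 75, and 21 in the anti-IFNAR fit, where Cd8a ranked 105. In the CAF and tumor cell fit Apoe ranked 1249. Apoe and Lyz2 together made up most of the summed level of the 8 genes per kb of exon. Apoe held 34.6% of it in the CD8+ T cell fit, 33.7% in the anti-IFNAR fit and 36.2% in the CAF and tumor cell fit. Lyz2 held 41.1%, 36.3% and 29.7%. In both fits of CD8+ T cells the order of the pair depended on the length used, since Apoe led with the longest transcript. In the CAF and tumor cell fit Apoe led with either length.

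**Figure D2:**
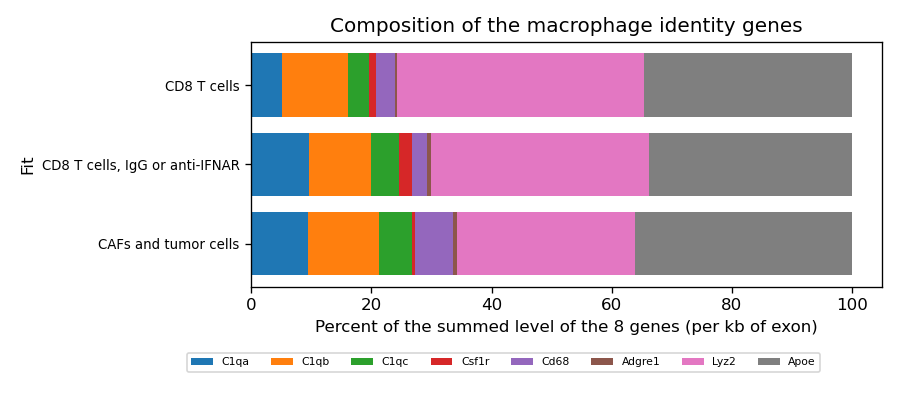
Share of each gene in the summed level of the 8 macrophage identity genes, in percent, per kb of exon, with 1 bar for each fit. Lyz2 and Apoe fill most of each bar, and the share of Cd68 is 6.33% in the CAF and tumor cell fit against 3.06% and 2.45% in the CD8+ T cell and anti-IFNAR fits.

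The members were then set beside the markers of the sorted cells within each fit, where scale plays no part. Cd8b1 and Pdpn were used because the length of each was the same by both definitions. In the CD8+ T cell fit Lyz2 was 1.07 times Cd8b1 per kb of exon, and in the anti-IFNAR fit 2.44 times. C1qa was 0.135 times Cd8b1 in the CD8+ T cell fit and 0.648 times in the anti-IFNAR fit. Csf1r was 0.0302 and 0.154 times Cd8b1. Cd8b1 was the highest of the T cell markers per kb of exon in both fits, so ratios to the others were larger. Over Cd3d, C1qa stood at 0.358 times in the CD8+ T cell fit and 2.04 times in the anti-IFNAR fit. Lyz2 stood at 2.85 and 7.67 times Cd3d. For all 8 genes the ratio to Cd8b1 was higher in the anti-IFNAR fit, to which the labels assign only irradiated samples, and this difference has no test. Cd8b1 itself held 0.139% of all normalized counts in the CD8+ T cell fit and 0.0519% in the anti-IFNAR fit. As shares of all normalized counts, Lyz2 (0.133% and 0.112%), Apoe (0.182% and 0.170%), C1qb (0.0295% and 0.0265%) and Cd68 (0.00946% and 0.00727%) were lower in the anti-IFNAR fit. The shares of C1qa (0.0132% and 0.0236%), C1qc (0.0164% and 0.0207%), Csf1r (0.0164% and 0.0311%) and Adgre1 (0.00364% and 0.00548%) were higher there. These shares are of all genes, and protein-coding genes with a length held 97.8% and 72.6% of counts in the same order. Levels per kb of exon, scaled to sum to 1000000 over only these protein-coding genes in each fit, were higher in the anti-IFNAR fit for all 8 genes. They were 3375 and 4299 for Lyz2, 2846 and 3993 for Apoe, 906 and 1224 for C1qb, and 252 and 291 for Cd68. The direction for these genes thus depended on the total used. In the CAF and tumor cell fit Lyz2 was 0.735 times and C1qa 0.234 times Pdpn, which encodes podoplanin, and Csf1r was 0.0142 times Pdpn. Apoe was 0.896 times Pdpn, or 1.36 times with the longest transcript. Per kb of exon, Pdpn (1449) was above Pdgfra (1246) but below Ly6c1 (4115), Dcn (5962) and Col1a1 (7127). Ratios to Ly6c1, Dcn and Col1a1 were therefore smaller. Because this fit was read as an average of CAFs and tumor cells, these ratios describe the pool of both sorts.

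**Figure D3:**
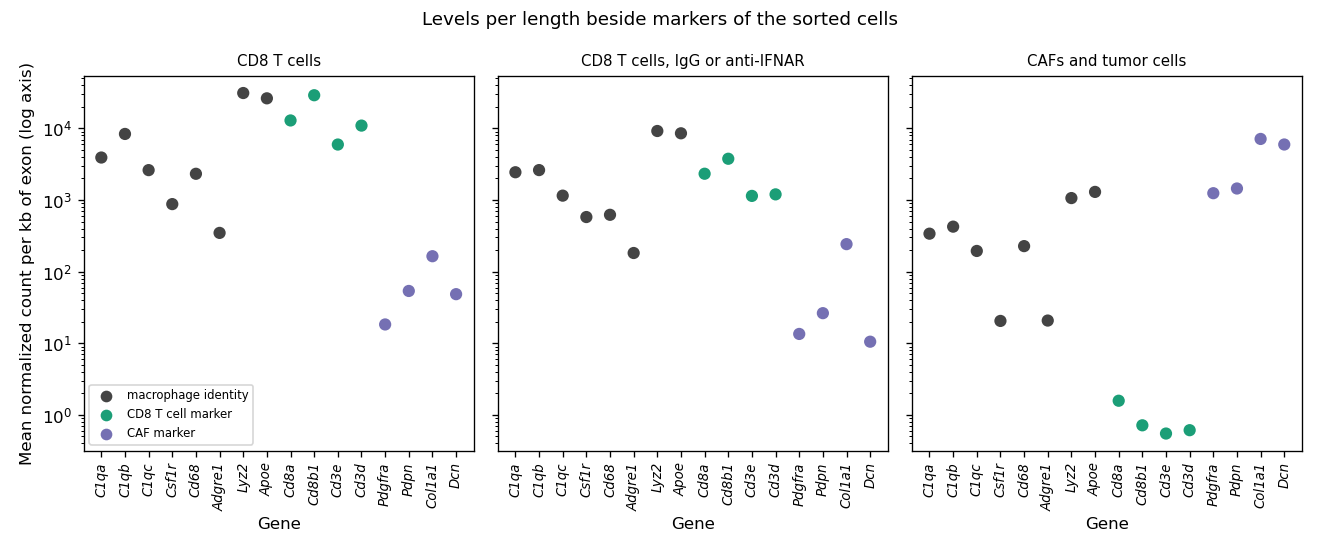
Authors' mean normalized count per kb of exon (log axis) of the 8 macrophage identity genes (dark), 4 CD8 T cell markers (green) and 4 CAF markers (purple), with 1 panel for each fit and no error available. Lyz2 lies at the level of Cd8b1, the highest of the 4 T cell markers, in the CD8+ T cell fit (ratio 1.07). In the CAF and tumor cell fit Lyz2 lies below all 4 CAF markers shown, at 0.735 times Pdpn, which is itself below Dcn and Col1a1.

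A wider list of 15 genes of macrophages and related myeloid cells was also read. All 15 had an authors' mean of at least 10 in the CD8+ T cell fit, and 14 did in each of the other fits, where Cd163, a hemoglobin scavenger receptor, was at 8.34 (anti-IFNAR) and 0.612 (CAFs and tumor cells). Over all genes listed, 15343 of 55453 reached that mean in the CD8+ T cell fit. In the anti-IFNAR fit 13838 of 53819 did, and in the CAF and tumor cell fit 14303 of 53819. Ctss, the lysosomal protease cathepsin S, was the highest of the 15 per kb of exon in each fit, with authors' means of 16019 and 10264 in the CD8+ T cell and anti-IFNAR fits and 904 in the CAF and tumor cell fit. The sum of the 8 identity genes per kb of exon was 2.37 times the sum of these 15 in the CD8+ T cell fit, 2.04 times in the anti-IFNAR fit and 1.69 times in the CAF and tumor cell fit. Of the 15 genes, 14 were higher in the CD8+ T cell fit than in the CAF and tumor cell fit, at a median ratio of 18.9. The exception was Mertk, a receptor for the uptake of dying cells, with an authors' mean of 450 against 1412. Markers of B cells and endothelium in the CD8+ T cell fit lay at 372 normalized counts per kb of exon for Cd79a, 286 for Pecam1 and 16.4 for Cdh5. In the anti-IFNAR fit they lay at 161, 101 and 4.08. The CAF markers ranged from 18.3 (Pdgfra) to 164 (Col1a1) normalized counts per kb in the CD8+ T cell fit and from 6.51 (Ly6c1) to 242 (Col1a1) in the anti-IFNAR fit. Adgre1 was the 1 identity gene below any of these B cell, endothelium and CAF markers. It stood at 348 against Cd79a in the CD8+ T cell fit and at 182 against Col1a1 in the anti-IFNAR fit. Of the neutrophil genes in the CD8+ T cell fit, S100a9 (1656) and S100a8 (994 normalized counts per kb) were above both Csf1r (877) and Adgre1, and Ly6g (3.96) was below. In the anti-IFNAR fit S100a9 (59.4), S100a8 (28.0) and Ly6g (2.34) were below all 8 identity genes. The part of fibroblast transcripts in the Apoe level was not tested.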

How the data were processed

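Bulk RNA-seq libraries were made from 1 ng of preamplified RNA, with about 25 M single reads of 100 nt per sample per the labels. The submitters' processing notes name fastp 0.20.1, STAR 2.7.6a, DESeq2 1.28.1, R 4.0.2 and build mm39. The counting tool is not given in the sources used here. The deposited mean normalized count is a signal that the authors made by dividing read counts by DESeq2's size factors and averaging over the libraries of a fit, which the tables do not name. The other columns hold the authors' own comparisons (log2 fold change, Wald statistic, p-value and adjusted p-value) and were not used. The depth of each library is unknown.

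Genes were ranked by the mean with pandas 2.3.3 in Python 3.11.15. Means were divided by the kb of the union of exons in GENCODE M21 (GRCm38, not the authors' build). Ranks and lengths were tested on simulated data. The named genes are the 8 members and fixed marker lists, chosen with earlier results of these data known, and genes singled out from them by their values. One marker is not reported here. Groups followed the labels, which do not give responders or nonresponders per sample. The planned tests need values per sample and were not run.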

Additional observations from a re-analysis of the deposited data

How the results depend on the processing

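Ranking only genes with a mean of at least 10 left the ranks of the 8 genes by their mean as they were in the 3 fits, since each member is above that minimum. With the longest transcript in place of the union of exons, a choice made after the data were seen, 18 of the 24 levels per kb stayed within 1.5 times. The other 6 were C1qc and Apoe in each fit, which in the CD8+ T cell fit went from 2616 to 4199 and from 26304 to 39942 normalized counts per kb. A gene's change was the same in each fit, because its lengths do not depend on the fit. C1qa, C1qb, Adgre1 and Lyz2 have the same length by both definitions, so their levels could not move. The order of Lyz2 and Apoe turned in both fits of CD8+ T cells, as did C1qa and C1qc in the CD8+ T cell fit, Csf1r and Cd68 in the anti-IFNAR fit, and C1qc and Cd68, and Csf1r and Adgre1, in the CAF and tumor cell fit. The share of the 8 genes in all normalized counts of the anti-IFNAR fit was 0.397%, and 0.431% without mt-Rnr2, a mitochondrial ribosomal RNA with 7.91% of the counts of that fit, also an added choice. No paired analysis was possible because the columns used carry no replicate numbers. No replicate could be left out, and other normalizations or filters on counts were not run, for the same reason. The libraries behind each mean are not stated, and the means do not show whether a few libraries hold most of a gene's reads.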
